A study of Rattus norvegicus with 12 samples.

Results

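The abundance of 10 Notch pathway transcripts was followed in PAC1 cells after depletion of RBPMS, RBFOX2 or QKI. The genes were the receptors Notch1, Notch2 and Notch3, the ligands Jag1, Jag2 and Dll1, and the targets Hes1, Hey1, Hey2 and Heyl. They were taken by symbol from the count table, where all 10 are among 33294 genes, and 9 passed the filter on low counts that left 18438 genes to be tested. Heyl did not pass and is given by its counts. PAC1 is a cell line of rat pulmonary artery smooth muscle, so each group rests on 1 line grown without the endothelial neighbours of an artery. The 12 libraries form 4 groups of 3. The control cells received the negative control siRNA C2, and the other cells an siRNA against RBPMS, RBFOX2 or QKI, whose gene is listed as Qk. All groups were cultured for the more differentiated state of the line. The study reports that the control cells of this experiment were less differentiated than those of its other sequencing experiment. Per the labels all groups, control included, received 90 pmol of siRNA, a second dose at 24 h, and were harvested 48 h after that dose. The study gives longer intervals for the same experiment. The study describes its transfections as repeated in at least 3 biological replicates, while the labels only number the libraries.

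Notch receptors are membrane proteins that are switched on by ligands of the Jagged and Delta-like families on a neighbouring cell. Binding lets a metalloprotease and then gamma-secretase cut the receptor, and the freed intracellular part enters the nucleus, where it joins the DNA-binding protein RBPJ and a Mastermind-like coactivator. Genes of the Hes and Hey families, which encode transcriptional repressors, are the best known targets. In arteries Notch3 is found mainly in smooth muscle, and Jagged1 signalling takes part in the differentiation of vascular smooth muscle.

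Promoters of 9 of the 10 genes could be matched by symbol in a RefSeq table of the assembly GRCr8, Hey1 being the gene without an entry. The 250 bases before each start were searched on both strands for TGGGAA, the core of the RBPJ site, and for GTGGGAA, which contains it. Of 33469 promoters, 22.1% hold TGGGAA and 2.71% hold it more than once, and 5.27% hold GTGGGAA. Among the 9 genes Hes1, Hey2 and Dll1 have 2 matches to TGGGAA each and the other 6 have none. Hes1 and Hey2 are shown because they are direct Notch targets that moved differently in QKI knockdown, and Notch3 because it fell furthest. Hes5, a further target described with the pathway genes, is shown as the promoter with 2 matches to GTGGGAA, which 0.185% of promoters have. The promoters of Nrarp and Psen2, also described below, were searched as well. Nrarp, another target, had no match to either motif, and Psen2 had 1 match to TGGGAA. Capitals mark every match to the core, extended to GTGGGAA where that is present, and TTCCCA or TTCCCAC is a match on the other strand. The sequences, written in the direction of transcription, are Hes1 (chr11:84213046-84213295, minus strand), Hey2 (chr1:28640850-28641099, plus strand), Hes5 (chr5:170804327-170804576, plus strand) and Notch3 (chr7:11834586-11834835, minus strand). A match is only a run of letters, and binding was not measured.
Hes1: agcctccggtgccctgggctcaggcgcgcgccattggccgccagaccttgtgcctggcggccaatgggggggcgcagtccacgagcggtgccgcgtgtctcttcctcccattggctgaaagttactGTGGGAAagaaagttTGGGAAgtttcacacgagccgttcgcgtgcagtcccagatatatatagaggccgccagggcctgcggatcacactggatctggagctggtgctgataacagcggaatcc
Hey2: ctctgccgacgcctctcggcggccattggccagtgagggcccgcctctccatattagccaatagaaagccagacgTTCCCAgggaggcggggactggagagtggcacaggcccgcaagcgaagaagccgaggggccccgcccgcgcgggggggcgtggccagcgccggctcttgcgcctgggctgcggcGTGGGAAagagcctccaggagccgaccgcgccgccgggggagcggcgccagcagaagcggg
Hes5: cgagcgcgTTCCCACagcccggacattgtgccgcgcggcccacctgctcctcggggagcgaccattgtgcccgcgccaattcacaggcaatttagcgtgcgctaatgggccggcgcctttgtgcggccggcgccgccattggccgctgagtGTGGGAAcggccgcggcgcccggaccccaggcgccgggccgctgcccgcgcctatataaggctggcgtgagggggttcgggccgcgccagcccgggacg
Notch3: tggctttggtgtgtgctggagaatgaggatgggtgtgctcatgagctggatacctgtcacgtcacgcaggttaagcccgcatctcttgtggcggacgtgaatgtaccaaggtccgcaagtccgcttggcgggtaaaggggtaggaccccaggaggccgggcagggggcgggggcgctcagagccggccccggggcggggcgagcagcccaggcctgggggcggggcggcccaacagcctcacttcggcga
In Hes1 the matches start 123 and 109 bases before the transcription start, and in Hey2 they start 175 bases before it, on the other strand, and 60 bases before it. In Hes5 they start 242 bases before it, on the other strand, and 98 bases before it. Notch3 shows no match in this window.

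Library totals ran from 110.6 to 151.7 M counts. Each siRNA lowered its own target: the mean of Rbpms fell from 40.7 to 7.21 CPM, that of Rbfox2 from 154 to 37.3 CPM and that of Qk from 233 to 26.6 CPM (CPM, counts scaled to a common library total by the TMM method, n = 3). Rbpms itself was also lower in RBFOX2 knockdown, at 23.1 CPM, and in QKI knockdown, at 29.0 CPM, while RBFOX2 depletion lowered Qk to 174 CPM and RBPMS depletion raised it to 265 CPM. Rbfox2 stood at 142 CPM in RBPMS and 139 CPM in QKI knockdown. The second library of RBPMS knockdown stood apart: the chi-square per degree of freedom, a measure of distance between the counts of a pair, was 57.8 and 45.6 against its mates but 9.27 between those mates, and at most 21.5 for the pairs of other groups. Changes against control in RBPMS knockdown of the Notch genes, and of the other named pathway genes that passed there, are therefore given with and without it. All 8 smooth muscle markers listed, among them Acta2 and Myh11, lay above 1 CPM in every group. Their summed level was 2109 to 2175 CPM in control, 1069 to 1176 CPM after RBPMS knockdown, 826.7 to 924.5 CPM in RBFOX2 knockdown and 1441 to 1526 CPM in QKI knockdown. The sums are weighted by Acta2, whose mean was 990 CPM in control, 315 after RBPMS, 229 after RBFOX2 and 444 after QKI depletion. Not all markers fell: Myh11 averaged 6.48 CPM in control, 8.23 after RBPMS, 13.4 after RBFOX2 and 7.38 after QKI depletion. Against control, QKI depletion left Tagln at 704 CPM beside 687, and Myocd at 38.1 CPM beside 22.1. Of 8 endothelial markers 4 were above 1 CPM in control, Cdh5 at 6.77, Esam at 6.48, Vwf at 1.39 and Tek at 1.32 CPM, while Kdr had at most 6 counts and Emcn at most 10 in any library. Their summed level was 15.14 to 17.4 CPM in control, 14.03 to 15.11 CPM after RBPMS knockdown, 9.934 to 10.6 CPM in RBFOX2 knockdown and 9.76 to 10.67 CPM in QKI knockdown. Directions differed within this list. Cdh5 and Esam, which weight the sums, and Vwf had lower means in each knockdown than in control. Tek averaged 1.32 CPM in control, 2.00 after RBPMS, 1.22 after RBFOX2 and 2.09 after QKI depletion. Pecam1 and Tie1, both below 1 CPM, had higher means in each knockdown. Summed macrophage and leukocyte markers (6 genes, mostly Cd14) lay between 37.87 and 39.64 CPM in control and between 43.74 and 59.99 CPM in the knockdowns. Cd14 averaged 37.0 CPM in control, 52.9 after RBPMS, 51.6 after RBFOX2 and 38.4 after QKI depletion. In QKI knockdown Csf1r averaged 3.63 CPM, against 0.405 in control. Summed epithelial markers (5 genes) were at most 0.752 CPM except in QKI knockdown, at 5.631 to 7.447 CPM. Most of that was Cldn4, which averaged 5.63 CPM there and 0.365 CPM in control. Summed fibroblast markers (5 genes, mostly Col1a1) ran from 7337 to 8472 CPM in control and from 13940 to 17080 CPM in the knockdowns. The other fibroblast markers were mixed. Lum and Dcn had lower means in each knockdown than in control. Lum averaged 53.9 CPM in control, 22.4 after RBPMS, 37.4 after RBFOX2 and 20.1 after QKI depletion. Dcn averaged 2.501, 0.897, 2.15 and 0.516 CPM in the same order. Pdgfra had a lower mean than control after RBPMS and QKI depletion but a higher one after RBFOX2 depletion. Dpt, with at most 19 counts in any library, had a higher mean in each knockdown. The part of these shifts in the Notch results was not tested, and in bulk RNA fewer cells of a type cannot be told apart from less RNA per cell.

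Most of the Notch genes were lower after each knockdown. Notch1, Notch3, Jag1, Jag2 and Hey2 fell in all 3 knockdowns, whereas Notch2 and Dll1 rose in all 3. Hes1 fell in RBPMS and RBFOX2 knockdown but rose in QKI knockdown, and Hey1 passed as lower in RBFOX2 and QKI knockdown, both calls depending on 1 control library. A gene was called changed at an adjusted p under 0.05 in edgeR's quasi-likelihood test (Benjamini-Hochberg over all genes tested). By this test 8 of the 9 tested Notch genes changed in RBPMS knockdown, 2 higher and 6 lower, where 59.4% of all genes were called, 30.4% higher and 29.0% lower. In RBFOX2 knockdown all 9 changed, 2 higher and 7 lower, where 60.3% of all genes were called, 30.1% higher and 30.1% lower. In QKI knockdown all 9 changed, 3 higher and 6 lower, where 66.9% of all genes were called, 32.9% higher and 34.0% lower. Most genes of the table passed this test, so the sizes of the changes are set beside the counts. With a change of more than 2-fold also required, 3 Notch genes remained in RBPMS knockdown against 9.66% of all genes, 4 in RBFOX2 knockdown against 11.7%, and 6 in QKI knockdown against 17.5%. The median log2 fold change of the 9 genes was -0.89 in RBPMS, -0.72 in RBFOX2 and -1.09 in QKI knockdown, whereas that of all genes tested was 0.0085, 0.015 and 0.007. The 3 knockdowns were compared with the same 3 control libraries. Without the second RBPMS knockdown library, 8 of the 9 genes still passed in RBPMS knockdown.

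**Figure D1:**
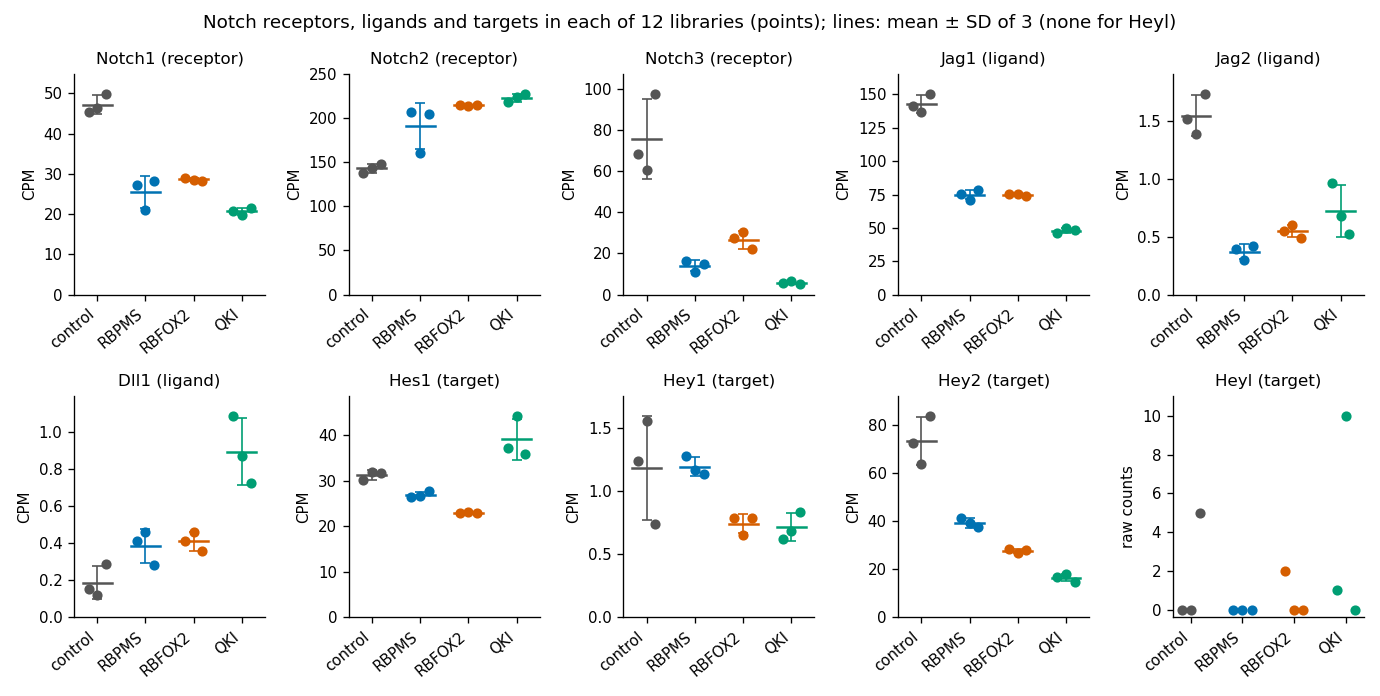
Level of each Notch gene in each of the 12 libraries, in CPM (raw counts for Heyl), with control and the RBPMS, RBFOX2 and QKI knockdown groups along the horizontal axis; points are libraries, and the horizontal and vertical lines are the mean and SD of 3. Notch1, Notch3, Jag1, Jag2 and Hey2 lie lower in every knockdown library than in any control library, and Notch2 lies higher.

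Among the receptors, Notch3 moved furthest. It stood at 68.4, 60.6 and 97.7 CPM in the control libraries, at 16.4, 11.2 and 14.8 CPM after RBPMS knockdown, at 27.5, 30.4 and 22.0 CPM in RBFOX2 knockdown, and at 5.48, 6.70 and 5.28 CPM in QKI knockdown. No knockdown library reached the lowest control library, and no 2 groups overlapped, although the third control library was well above the other two. The log2 fold change was -2.42 ± 0.17 (SE) in RBPMS knockdown (edgeR adjusted p = 1.318e-09), -1.50 ± 0.16 in RBFOX2 knockdown (adjusted p = 2.579e-07) and -3.70 ± 0.18 in QKI knockdown (adjusted p = 6.605e-12), or 5.36-fold, 2.84-fold and 13.0-fold lower. Without the second RBPMS knockdown library the change in RBPMS knockdown was -2.28. Among 10707 genes averaging 5 CPM or more, 5 fell further than Notch3 in RBPMS knockdown, 110 in RBFOX2 knockdown and 8 in QKI knockdown. The knockdowns also differed from one another in Notch3. The level was lower in RBPMS than in RBFOX2 knockdown by a log2 difference of -0.92 (edgeR adjusted p = 1.343e-04), and higher in RBPMS than in QKI knockdown by 1.28 (adjusted p = 9.617e-06). Without the second RBPMS knockdown library the Notch3 differences were -0.77 and 1.43, and both passed. The gap between RBFOX2 and QKI knockdown was 2.20 (adjusted p = 6.163e-09), so Notch3 was lowest after QKI, intermediate after RBPMS and least reduced after RBFOX2 depletion.

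Notch1, a broadly expressed receptor, fell less. Its levels were 45.3, 46.4 and 49.9 CPM in control, 27.2, 21.0 and 28.2 CPM after RBPMS knockdown, 29.1, 28.5 and 28.2 CPM in RBFOX2 knockdown and 20.9, 19.8 and 21.4 CPM in QKI knockdown. Every knockdown library was below every control library, and the second RBPMS knockdown library lay with the QKI knockdown libraries rather than with its mates. Notch1 changed by -0.89 ± 0.078 on the log2 scale in RBPMS knockdown (edgeR adjusted p = 2.925e-08), -0.72 ± 0.077 in RBFOX2 knockdown (adjusted p = 3.392e-07) and -1.19 ± 0.079 in QKI knockdown (adjusted p = 4.334e-10). Without the second library the change in RBPMS knockdown was -0.77. Notch1 was lower in QKI than in RBFOX2 knockdown, with a log2 difference of 0.47 between RBFOX2 and QKI knockdown (edgeR adjusted p = 5.237e-05), and lower than in RBPMS knockdown, with a difference of 0.30 (adjusted p = 0.00396). Without the second RBPMS knockdown library the difference between RBPMS and QKI knockdown was 0.42 (edgeR adjusted p = 1.659e-07). Between RBPMS and RBFOX2 knockdown the difference was -0.17, with a 95% interval from -0.34 to -0.0036, and did not pass (adjusted p = 0.0759). It passed in 7 of 11 alternatives, among them the replicate block (-0.18, adjusted p = 0.0416). With library totals, which moved the median of all genes by -0.0986, the difference also passed (-0.27, adjusted p = 0.00860). Leaving out single libraries moved it in both directions: it was -0.05 without the second RBPMS knockdown library (adjusted p = 0.431), and passed without the first, at -0.22 (adjusted p = 0.0374), and without the third, at -0.25 (adjusted p = 0.0145).

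Notch2, the receptor that is often found together with Notch3 in vascular smooth muscle, went the opposite way. Its levels were 138, 143 and 148 CPM in control, 206, 160 and 205 CPM after RBPMS knockdown, 214, 213 and 215 CPM in RBFOX2 knockdown and 218, 224 and 227 CPM in QKI knockdown. All 9 knockdown libraries were above the highest control library, and the second RBPMS knockdown library came closest to control. Notch2 rose by 0.41 ± 0.067 on the log2 scale in RBPMS knockdown (edgeR adjusted p = 4.321e-05), by 0.58 ± 0.067 in RBFOX2 knockdown (adjusted p = 8.057e-07) and by 0.64 ± 0.067 in QKI knockdown (adjusted p = 1.804e-07). Without the second library the rise in RBPMS knockdown was 0.52, closer to the others. RBFOX2 and QKI knockdown libraries did not overlap in Notch2, but their difference of -0.06, with a 95% interval from -0.20 to 0.08, did not pass (edgeR adjusted p = 0.463). It passed when only the 6 libraries of this comparison entered the fit, with the same size (adjusted p = 0.0205). RBPMS knockdown was lower than RBFOX2 knockdown by a log2 difference of -0.17 (adjusted p = 0.0379), a call lost without its second library, where the difference was -0.06 (adjusted p = 0.102), and also without any 1 of the RBFOX2 knockdown libraries (adjusted p = 0.0898 to 0.0961). Against QKI knockdown the difference was -0.23 (edgeR adjusted p = 0.00699), and -0.12 without that library (adjusted p = 0.00238).

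**Figure D2:**
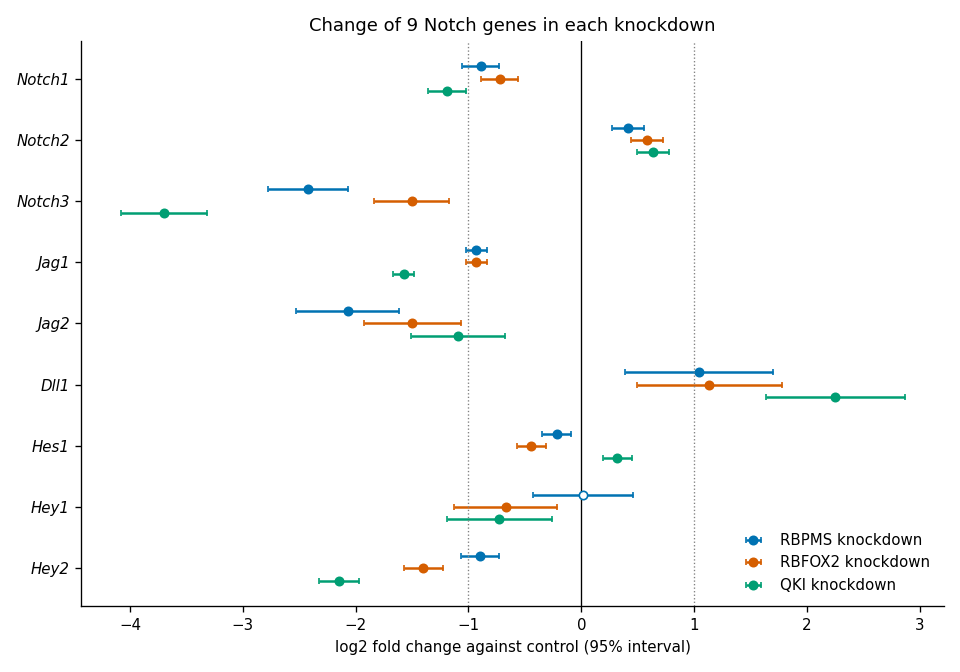
Log2 fold change against control (horizontal axis) of 9 Notch genes in RBPMS, RBFOX2 and QKI knockdown; bars are 95% intervals, filled points passed an adjusted p of 0.05, the open point (Hey1 in RBPMS knockdown) did not, and dotted lines mark a 2-fold change. Notch3 in QKI knockdown is the point furthest from 0, at -3.70, and Hes1 is the gene whose sign differs between knockdowns that passed.

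Of the ligands, Jag1, which encodes Jagged1 and is the main Jagged ligand of the vessel wall, had levels of 141, 137 and 151 CPM in control, 75.7, 71.1 and 78.3 CPM after RBPMS knockdown, 75.6, 75.4 and 73.9 CPM in RBFOX2 knockdown and 46.3, 49.7 and 48.2 CPM in QKI knockdown. The libraries of each group lay close together, RBPMS and RBFOX2 knockdown shared 1 range, and QKI knockdown lay below both. The change in Jag1 on the log2 scale was -0.93 ± 0.044 in RBPMS knockdown (edgeR adjusted p = 1.141e-11), -0.93 ± 0.043 in RBFOX2 knockdown (adjusted p = 7.493e-12) and -1.57 ± 0.044 in QKI knockdown (adjusted p = 5.001e-15). Jag1 was 1.91-fold lower in RBPMS knockdown and 1.91-fold lower in RBFOX2 knockdown, and their difference had a 95% interval from -0.09 to 0.09 on the log2 scale (edgeR adjusted p = 0.996). QKI knockdown was lower than either, with a log2 difference of 0.64 between RBPMS and QKI knockdown (adjusted p = 1.094e-09) and of 0.64 between RBFOX2 and QKI knockdown (adjusted p = 6.868e-10). The change in RBPMS knockdown was -0.89 without its second library.

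Jag2, the second Jagged ligand, had few counts. There were 186, 206 and 236 counts in the control libraries, 42, 40 and 46 after RBPMS knockdown, 76, 84 and 67 in RBFOX2 knockdown and 133, 78 and 65 in QKI knockdown. All knockdown libraries were below control, and the first QKI knockdown library was well above the others of its group. Jag2 changed on the log2 scale by -2.07 ± 0.22 in RBPMS knockdown (edgeR adjusted p = 2.729e-07), -1.50 ± 0.20 in RBFOX2 knockdown (adjusted p = 5.472e-06) and -1.09 ± 0.20 in QKI knockdown (adjusted p = 1.073e-04), and -1.92 in RBPMS knockdown without its second library. Here RBPMS knockdown gave the lowest level, the reverse of Jag1. It was below QKI knockdown by a log2 difference of -0.98 (edgeR adjusted p = 0.00128). Against RBFOX2 knockdown the difference of -0.58 passed narrowly (adjusted p = 0.0446) and did not pass without the second RBPMS knockdown library, where it was -0.43 (adjusted p = 0.168), nor without the first (adjusted p = 0.0584) or any 1 of the RBFOX2 knockdown libraries (adjusted p = 0.0506 to 0.130). RBFOX2 and QKI knockdown differed by -0.41, with a 95% interval from -0.86 to 0.04 (edgeR adjusted p = 0.101), which became -0.14 without the first QKI knockdown library (adjusted p = 0.579) and passed without the third, at -0.60 (adjusted p = 0.0197).

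Dll1, a Delta-like ligand, was near the lower end of detection and rose. It had 19, 18 and 39 counts in control, 44, 62 and 31 after RBPMS knockdown, 57, 65 and 49 in RBFOX2 knockdown and 150, 100 and 90 in QKI knockdown. QKI knockdown stood clear of all other groups, RBFOX2 knockdown was above control, and RBPMS knockdown overlapped control on the CPM scale where its lowest library had 0.282 CPM and the highest control library 0.286 CPM. Dll1 rose on the log2 scale by 1.04 ± 0.31 in RBPMS knockdown (edgeR adjusted p = 0.00807), 1.13 ± 0.30 in RBFOX2 knockdown (adjusted p = 0.00389) and 2.25 ± 0.29 in QKI knockdown (adjusted p = 2.351e-06), and 0.89 in RBPMS knockdown without its second library (adjusted p = 0.0352). QKI knockdown exceeded RBPMS knockdown, the log2 difference of RBPMS from QKI knockdown being -1.21 (edgeR adjusted p = 8.722e-04), and RBFOX2 knockdown, the difference being -1.12 (adjusted p = 0.00114). RBPMS and RBFOX2 knockdown differed by -0.09, with a 95% interval from -0.69 to 0.51. The Dll1 gene overlaps Fam120b in the RefSeq table, and since the sources do not state whether counting used strand, reads of the 2 genes may not be separable. Fam120b stood at 33.3 CPM in control and changed by -0.21 in RBPMS, 0.07 in RBFOX2 and 0.12 in QKI knockdown on the log2 scale, the value for RBFOX2 knockdown not passing the test.

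Of the targets, Hey2, a repressor with a known role in arterial development, fell in steps from control to QKI knockdown. It stood at 72.5, 63.6 and 83.3 CPM in control, 41.4, 39.1 and 37.4 CPM after RBPMS knockdown, 28.5, 26.9 and 27.8 CPM in RBFOX2 knockdown and 16.7, 18.1 and 14.9 CPM in QKI knockdown. The 4 groups did not overlap. Hey2 changed on the log2 scale by -0.90 ± 0.079 in RBPMS knockdown (edgeR adjusted p = 2.997e-08), -1.40 ± 0.080 in RBFOX2 knockdown (adjusted p = 1.003e-10) and -2.15 ± 0.083 in QKI knockdown (adjusted p = 3.020e-13), and -0.90 in RBPMS knockdown without its second library. Each step was larger than the spread between replicates, with log2 differences of 0.50 between RBPMS and RBFOX2 knockdown (edgeR adjusted p = 4.129e-05) and 0.75 between RBFOX2 and QKI knockdown (adjusted p = 3.549e-07). The first of these was 0.51 without the second RBPMS knockdown library. For Hey2 the reduction after RBFOX2 depletion exceeded that after RBPMS depletion, while for Notch3 RBPMS depletion gave the larger reduction.

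Hes1, a repressor that also responds to signals other than Notch, had levels of 30.1, 32.1 and 31.7 CPM in control, 26.4, 26.7 and 27.7 CPM after RBPMS knockdown, 23.0, 23.1 and 22.9 CPM in RBFOX2 knockdown and 37.2, 44.2 and 35.9 CPM in QKI knockdown. The groups did not overlap, with RBFOX2 knockdown lowest, RBPMS knockdown next, then control, and QKI knockdown highest. The changes were small. The log2 fold change was -0.22 ± 0.060 in RBPMS knockdown (edgeR adjusted p = 0.00483), -0.44 ± 0.060 in RBFOX2 knockdown (adjusted p = 5.868e-06) and 0.32 ± 0.059 in QKI knockdown (adjusted p = 1.346e-04), and -0.21 in RBPMS knockdown without its second library. The direct test separated QKI knockdown from both others, with log2 differences of -0.54 for RBPMS against QKI knockdown (edgeR adjusted p = 5.389e-07) and -0.76 for RBFOX2 against QKI knockdown (adjusted p = 4.417e-09). RBPMS knockdown was above RBFOX2 knockdown by 0.23 (adjusted p = 0.00435). Without the second RBPMS knockdown library its Hes1 differences were -0.53 from QKI and 0.23 from RBFOX2 knockdown, and both passed. Hes1 and Hey2 moved in opposite directions after QKI depletion, which is why their promoters, with 2 core matches each, were chosen for printing above.

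Hey1, the paralogue of Hey2, was low and uneven in control. It had 152, 232 and 101 counts in control, 136, 158 and 125 after RBPMS knockdown, 109, 92 and 107 in RBFOX2 knockdown and 86, 79 and 104 in QKI knockdown. Every knockdown group overlapped control, since the third control library, at 0.742 CPM, lay among the RBFOX2 and QKI knockdown libraries. In RBPMS knockdown Hey1 had a log2 fold change of 0.01 ± 0.21, with a 95% interval from -0.43 to 0.46 (edgeR adjusted p = 0.962), and 0.03 without its second library. It was -0.67 ± 0.22 in RBFOX2 knockdown (adjusted p = 0.0127) and -0.73 ± 0.22 in QKI knockdown (adjusted p = 0.00742). Both calls rested on the second control library, without which the values were -0.41 (edgeR adjusted p = 0.117) and -0.47 (adjusted p = 0.0720). The comparisons that do not use control separated RBPMS knockdown from RBFOX2 knockdown by a log2 difference of 0.68 (edgeR adjusted p = 0.0130) and from QKI knockdown by 0.74 (adjusted p = 0.00795), without overlap of the libraries. The first of these did not pass without the second RBFOX2 knockdown library, where the difference was 0.61 (adjusted p = 0.0515). RBFOX2 and QKI knockdown differed by 0.06, with a 95% interval from -0.42 to 0.53.

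Heyl, the third Hey family gene, was close to absent from the counts. It had 0, 0 and 5 counts in control, 0 in each RBPMS knockdown library, 2, 0 and 0 in RBFOX2 knockdown and 1, 10 and 0 in QKI knockdown. A count of 0 allows up to 3 counts in a library, and no fold change was computed. Heyl also overlaps a long non-coding gene, LOC108351027, in the RefSeq table.

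The direct comparisons between knockdowns are given with the shares of all genes that differed. Between RBPMS and RBFOX2 knockdown 6 of the 9 genes differed at an adjusted p under 0.05, where 56.7% of all genes did, 28.8% higher and 27.9% lower. The 6 were 3 higher and 3 lower in RBPMS knockdown. The 3 receptors and ligands lower in RBPMS knockdown were Notch2, Notch3 and Jag2, and the 3 targets Hes1, Hey1 and Hey2 were all higher. Without the second RBPMS knockdown library 4 of the 9 passed, and without the second RBFOX2 knockdown library 3 passed. Over all genes 10341 and 9550 passed in these fits, beside 10455 with all libraries. The calls of Notch2, Jag2 and Hey1 were those lost when single libraries were left out. Between RBPMS and QKI knockdown all 9 differed, where 61.0% of all genes did, 32.0% higher and 29.0% lower, with Notch1, Notch3, Jag1, Hey1 and Hey2 higher in RBPMS knockdown and Notch2, Jag2, Dll1 and Hes1 lower. Without the second RBPMS knockdown library all 9 still passed, and over all genes 11288 did, beside 11249 with all libraries. Between RBFOX2 and QKI knockdown 6 differed, where 68.5% of all genes did, 35.0% higher and 33.5% lower, with Notch1, Notch3, Jag1 and Hey2 higher in RBFOX2 knockdown and Dll1 and Hes1 lower. QKI knockdown thus gave the lowest levels of Notch1, Notch3, Jag1 and Hey2 and the highest of Dll1 and Hes1.

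**Figure D3:**
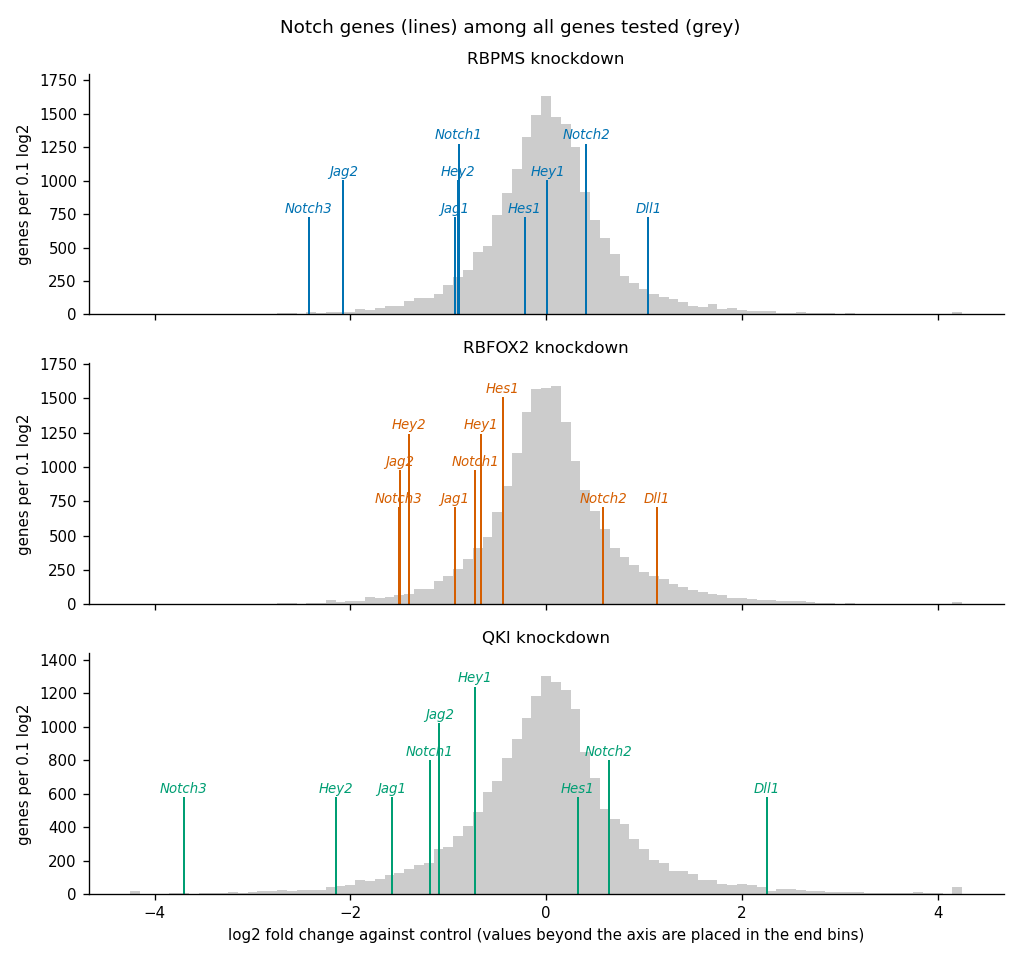
Distribution of log2 fold changes against control over all 18438 genes tested (grey, number of genes per bin of width 0.1) in RBPMS, RBFOX2 and QKI knockdown, with vertical lines at 9 Notch genes; line heights only separate the names. Notch3 lies in the left tail of each distribution, at -2.42, -1.50 and -3.70. Notch2, at 0.41, 0.58 and 0.64, and Hes1, at -0.22, -0.44 and 0.32, lie nearer to the centre.

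The wider pathway was described with a list of 68 genes in 9 roles, which includes the 10 genes above and of which 64 were tested. In RBPMS knockdown 44 passed the test, 13 higher and 31 lower. In RBFOX2 knockdown 44 passed, 16 higher and 28 lower, and in QKI knockdown 45 passed, 22 higher and 23 lower. The medians of the list, -0.14, -0.09 and -0.01 on the log2 scale, lay much nearer to those of all genes than the medians of the 9 genes did. With the 10 genes left out, 36, 35 and 36 of 55 genes passed, or 65.5%, 63.6% and 65.5%, against 59.4%, 60.3% and 66.9% of all genes. Changes above 2-fold were found for 9 genes of the full list in RBPMS knockdown, 10 in RBFOX2 knockdown and 14 in QKI knockdown, of 64 tested, beside 9.66%, 11.7% and 17.5% of all genes. Without the second RBPMS knockdown library 45 genes of the list passed in RBPMS knockdown.

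**Figure D4:**
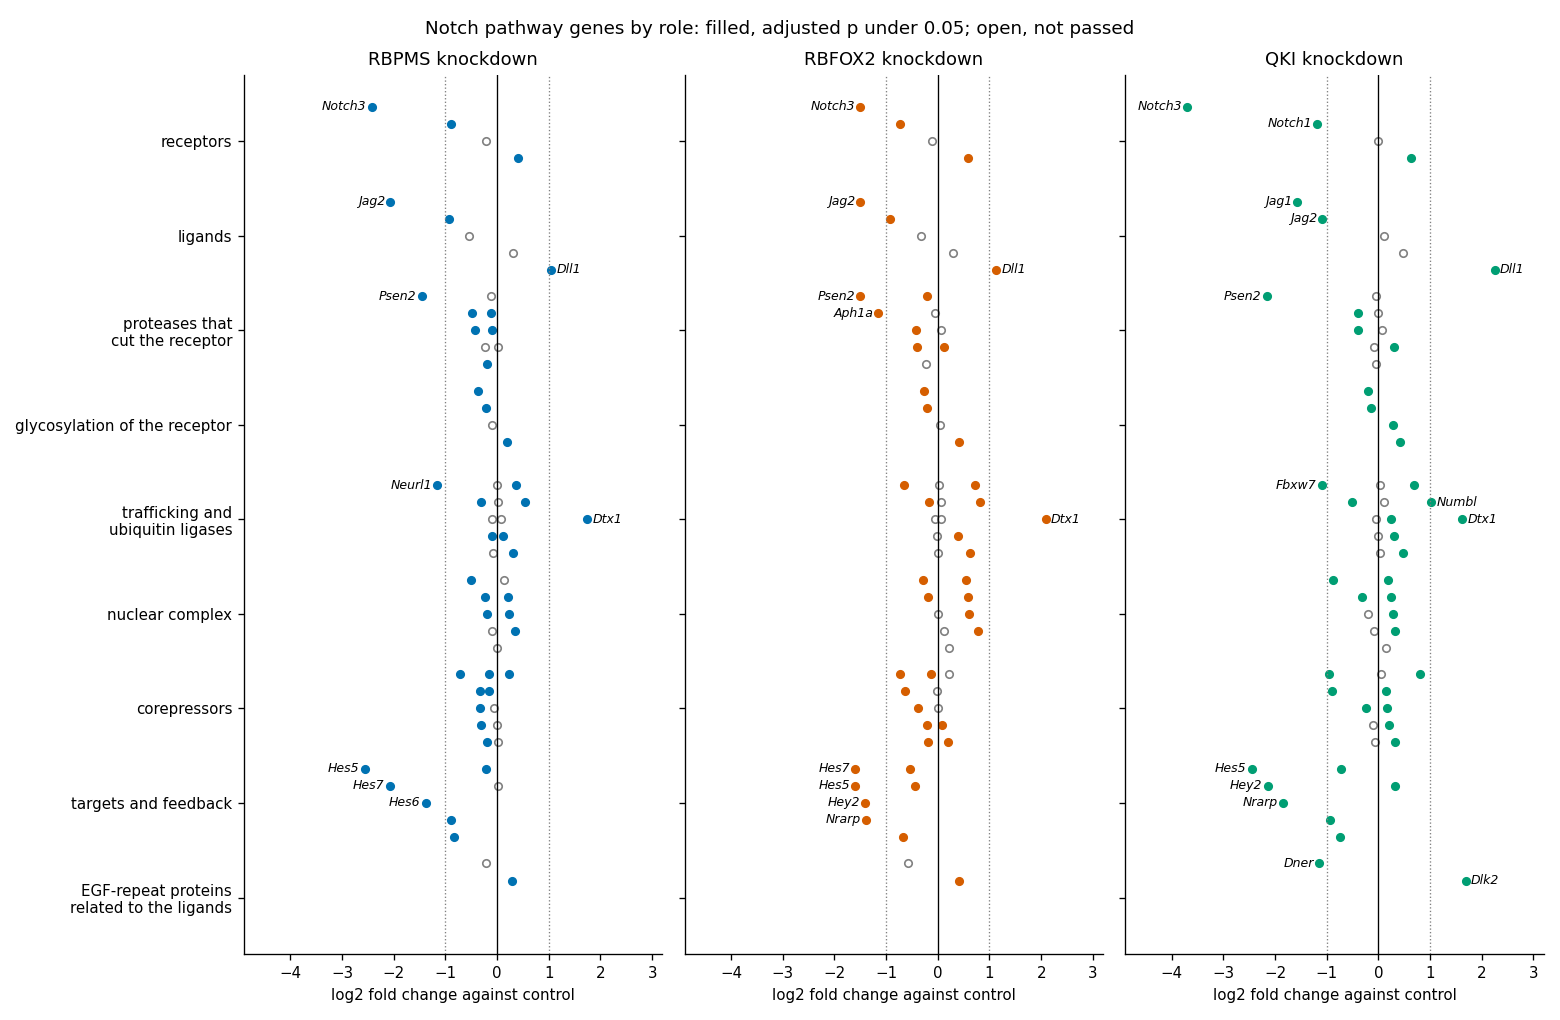
Log2 fold change against control (horizontal axis) of the 64 tested genes of the Notch pathway list, by role, in each knockdown; filled points passed an adjusted p of 0.05, open points did not, the vertical spread within a role only separates points, and names are given to genes that changed more than 2-fold. The nuclear complex and corepressor genes stay within the dotted 2-fold lines, and the targets and feedback genes that passed lie to the left of 0 except Hes1 in QKI knockdown.

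The remaining receptor and Delta-like ligands did not pass in any knockdown. Notch4, a receptor best known from endothelium, had means of 1.36 CPM in control, 1.16 after RBPMS knockdown, 1.26 in RBFOX2 knockdown and 1.35 in QKI knockdown. Dll3 had 14 to 32 counts per library and Dll4, an endothelial ligand, 2 to 14. These counts leave wide intervals, such as -0.58 to 0.13 for the log2 fold change of Notch4 in RBPMS knockdown.

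Among the proteases that cut the receptor, Psen2, a catalytic subunit of gamma-secretase, fell in all 3 knockdowns. It stood at 49.3, 45.9 and 58.1 CPM in control, 19.9, 18.1 and 17.9 CPM after RBPMS knockdown, 17.6, 18.3 and 18.2 CPM in RBFOX2 knockdown and 11.49, 11.99 and 10.87 CPM in QKI knockdown. All knockdown libraries were far below control and QKI knockdown was lowest. For Psen2 the log2 fold change was -1.46 ± 0.071 (edgeR adjusted p = 1.869e-11), -1.50 ± 0.071 (adjusted p = 8.41e-12) and -2.16 ± 0.073 (adjusted p = 5.568e-14) in RBPMS, RBFOX2 and QKI knockdown, and -1.43 in RBPMS knockdown without its second library. Aph1a, another gamma-secretase subunit, fell most in RBFOX2 knockdown, from 154 ± 0.760 CPM (SD, n = 3) in control to 69.4 ± 0.329 CPM, a log2 fold change of -1.15 (adjusted p = 3.649e-15). In RBPMS knockdown Aph1a changed by -0.19 (adjusted p = 1.834e-05), or -0.21 without the second library, and in QKI knockdown it did not pass, at 152 ± 1.93 CPM. Of the 9 protease genes 6 passed in RBPMS knockdown, all lower, 6 in RBFOX2 knockdown, 5 of them lower, and 4 in QKI knockdown, 3 of them lower. These shares, 66.7%, 66.7% and 44.4%, stand beside 59.4%, 60.3% and 66.9% of all genes called. The shares of all genes called lower were 29.0%, 30.1% and 34.0%.

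In the nuclear complex Rbpj, the DNA-binding partner of all Notch receptors, had means of 149 ± 7.96 CPM in control, 140 ± 12.1 in RBPMS knockdown, 123 ± 3.37 in RBFOX2 knockdown and 80.9 ± 4.22 in QKI knockdown (SD, n = 3). The log2 fold change was -0.28 ± 0.056 in RBFOX2 knockdown (edgeR adjusted p = 3.520e-04) and -0.89 ± 0.057 in QKI knockdown (adjusted p = 2.575e-10), while the RBPMS knockdown libraries overlapped control (-0.09, adjusted p = 0.164). Rbpj stood at 126 CPM in the second RBPMS knockdown library and at 147 CPM in each of its mates. Of the 9 genes of this role 6 passed in each knockdown, or 66.7%, near the 59.4%, 60.3% and 66.9% of all genes, and none changed above 2-fold. The 11 corepressors behaved likewise in size: 8 passed in each knockdown, with 7 lower in RBPMS, 6 lower in RBFOX2 and 3 lower in QKI knockdown, none above 2-fold. That is 72.7% called, beside 59.4%, 60.3% and 66.9% of all genes, of which 29.0%, 30.1% and 34.0% were called lower.

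Genes that regulate receptor trafficking or turnover moved in mixed directions. Dtx1, a ubiquitin ligase that binds Notch, rose in every knockdown, with log2 fold changes of 1.75 for RBPMS, 2.09 for RBFOX2 and 1.63 for QKI (edgeR adjusted p = 3.519e-05, 3.212e-06 and 5.859e-05), from 13 to 29 counts per control library, and 1.90 for RBPMS without its second library. Numbl, a relative of the Notch inhibitor Numb, rose in QKI knockdown alone among the 3 tests, from 45.1 ± 1.08 to 91.3 ± 3.55 CPM (log2 fold change 1.02, adjusted p = 8.962e-13). Fbxw7, which marks the intracellular part of Notch for degradation, fell in QKI knockdown from 14.0 ± 0.408 to 6.52 ± 0.230 CPM (-1.10, adjusted p = 1.255e-11), and by less in RBFOX2 knockdown (-0.16, adjusted p = 0.0153), a call lost without the first control library (adjusted p = 0.0559) or the first RBFOX2 knockdown library (adjusted p = 0.0503). Neurl1, a ubiquitin ligase that acts on Notch ligands, had a log2 fold change of -1.16 in RBPMS knockdown (edgeR adjusted p = 3.105e-06), -1.08 without its second library, and -0.66 in RBFOX2 knockdown (adjusted p = 5.937e-04), and stood at 2.54 CPM in QKI knockdown against 2.37 CPM in control. The genes that glycosylate the receptor stayed below 2-fold, with 3, 3 and 4 of 4 tested passing in RBPMS, RBFOX2 and QKI knockdown, beside 59.4%, 60.3% and 66.9% of all genes.

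The other targets and feedback genes fell in most cases. Nrarp, a Notch target whose product restrains the pathway, stood at 40.9, 40.2 and 45.1 CPM in control, 25.5, 22.1 and 23.4 CPM after RBPMS knockdown, 16.3, 16.5 and 15.5 CPM in RBFOX2 knockdown and 11.8, 12.4 and 10.9 CPM in QKI knockdown. Its groups did not overlap and had the same order as those of Hey2. The log2 fold change of Nrarp was -0.83 ± 0.059 (edgeR adjusted p = 2.178e-09), -1.39 ± 0.060 (adjusted p = 2.888e-12) and -1.85 ± 0.062 (adjusted p = 4.678e-14) in RBPMS, RBFOX2 and QKI knockdown, and -0.79 in RBPMS knockdown without its second library. Hes5, whose promoter is printed above, had 54 to 134 counts per library in control, 12 to 16 after RBPMS knockdown, 22 to 40 in RBFOX2 knockdown and 8 to 25 in QKI knockdown, with no overlap between control and any knockdown. Hes5 changed by -2.56 ± 0.37 (edgeR adjusted p = 1.332e-05), -1.60 ± 0.33 (adjusted p = 4.821e-04) and -2.45 ± 0.36 (adjusted p = 1.248e-05), and by -2.39 in RBPMS knockdown without its second library. It overlaps Pank4, which stood at 25.2 CPM in control and did not pass in any knockdown. Hes6, a Hes family member that counteracts Hes1, fell from 14.0 ± 1.26 CPM to 5.35 ± 0.351, 9.59 ± 0.794 and 7.35 ± 0.190 CPM (log2 fold changes -1.38, -0.54 and -0.93, the first -1.41 without the second RBPMS knockdown library). Of the 7 tested genes of this role 6 passed in RBPMS knockdown, all lower, 7 in RBFOX2 knockdown, all lower, and 7 in QKI knockdown, 6 of them lower. Of all genes 59.4%, 60.3% and 66.9% were called, 29.0%, 30.1% and 34.0% as lower. Hes2 and Heyl were not tested.

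Proteins with EGF repeats like those of the ligands differed between knockdowns. Dner, described as a non-classical Notch ligand, rose by 0.30 in RBPMS knockdown (edgeR adjusted p = 0.00325, and 0.36 without its second library) and 0.42 in RBFOX2 knockdown (adjusted p = 1.450e-04), and fell in QKI knockdown from 8.49 ± 0.652 to 3.82 ± 0.128 CPM (-1.15, adjusted p = 1.264e-09). Dlk2 rose in QKI knockdown by 1.69 (edgeR adjusted p = 1.018e-05), from 34 to 49 counts per control library to 101 to 144, and did not pass in the others.

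The genes with a pattern most like that of Notch3 were found as those of at least 5 CPM whose 3 log2 fold changes against control lay nearest to its own. Among 10706 genes the nearest was Cp, which encodes ceruloplasmin, at a distance of 0.416, with changes of -2.46 in RBPMS, -1.26 in RBFOX2 and -3.37 in QKI knockdown. Gucy1b1, a subunit of soluble guanylate cyclase, followed at 0.824, with changes of -2.20, -1.31 and -4.47, and Hgf, hepatocyte growth factor, at 0.858, with changes of -2.59, -2.29 and -4.01. Only Cp lay within 0.5 log2 units of Notch3. The distances rest on 3 comparisons that share their control libraries.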

How the data were processed

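Total RNA of 12 PAC1 samples was poly(A)-selected and sequenced with a strand-marking kit. Per the study's methods the authors aligned reads with STAR to mRatBN7.2 and counted them per gene with featureCounts. The labels name STAR 2.5.2a, which is not the version that the study gives. They deposited raw counts for 33294 genes and a normalised signal for 22320, which the authors made with a noise filter and quantile normalisation and which adding 5 to the counts and replacing ranks by quantile means rebuilt within 3.376e-09. The latter was used only as an alternative. Of the deposited counts from 1 to 19, 68.1% were even, against 50.93% above 1000, so low counts may not be single fragments.

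Groups and replicate numbers came from the sample titles. Genes were kept by filterByExpr, scaled by TMM and tested with edgeR 4.0.16 (glmQLFit and glmQLFTest, two-sided, R 4.3.3) on all 12 libraries with 1 coefficient per group, for each knockdown against control and each pair of knockdowns. Adjustment (Benjamini-Hochberg) ran over the 18438 genes tested, which hold 99.99% of counts. SE is the absolute log2 fold change divided by the square root of F. With 3 libraries against 3 an exact permutation test cannot give a p below 0.1. Totals of 110.6 to 151.7 M counts exceed the read depth that the study states, both before and after it subsampled the reads. The sources do not resolve this, so the totals may understate the counting error. Replicates spread beyond the error these counts imply (chi-square per degree of freedom 4.644 to 57.81). The procedure was run on simulated counts, drawn independently with the spread estimated in this fit. Such counts hold no outlying library and no replicate structure, so the run cannot speak to these. Alternatives were DESeq2 1.42.0, limma 3.58.1 on the normalised signal, other scalings, filters and sample sets, halved counts and a replicate block.

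The genes and lists were chosen with earlier results of these data known. Named are the 10 genes, the siRNA targets, pathway genes above 2-fold with a mean of at least 50 counts in all libraries, and Rbpj, Notch4, Dll3, Dll4, Hes5 and Nrarp. The 3 genes nearest to the gene with the largest change were also named. Hes7, with 2-fold changes in 2 knockdowns, had fewer counts. Promoter sequences are from RefSeq (GRCr8), a different build from the authors', so other coordinates are not given. Splicing was not analysed here.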

Additional observations from a re-analysis of the deposited data

How the results depend on the processing

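Across 11 alternatives to the processing, the number of Notch genes called was 6 to 8 in RBPMS knockdown, 6 to 9 in RBFOX2 knockdown and 6 to 9 in QKI knockdown, apart from the rule that also asks for a 2-fold change, which left 3 in RBPMS and 4 in RBFOX2 knockdown, and 9, 10 and 14 of the pathway list. The low end of 6 came with the filter at a mean of 200 counts. That filter left Jag2, Dll1 and Hey1 untested, and all 6 genes still tested passed. Of 288 values of the 9 genes against control under these alternatives, 286 kept their direction and their side of the threshold. The other 2 were Hey1 in RBPMS knockdown, -0.0317 with library totals as the only scaling and -0.0037 without a filter. With 1 library left out in turn, 158 such values did so and 4 did not. The 4 were the 2 lost calls of Hey1 described above and Hey1 in RBPMS knockdown, which turned 2 times and ranged from -0.2347 to 0.2724. The count of genes that differ between RBPMS and RBFOX2 knockdown ranged from 3 to 7.

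Differences between knockdowns were less stable, and the cause was not tested. Between RBPMS and RBFOX2 knockdown Jag1, at 3e-04, turned to -0.0017 with RLE size factors, -0.0981 with library totals, -0.0037 without a filter, -0.032 with a mean of at least 200 counts, -0.0013 with DESeq2, and -0.0564, -0.0563 and -0.0564 on the normalised signal with a pseudocount of 1, of 10, or a filter at 50, and ranged from -0.0303 to 0.0381 with 1 library left out. Dll1 turned to 0.0372, 0.0341 and 0.0372 on the normalised signal and ranged from -0.2451 to 0.0874 with 1 library left out. None of these values of Jag1 and Dll1 passed. Hey1 between RBFOX2 and QKI knockdown ranged from -0.0498 to 0.1776. The Jag2 difference between RBPMS and RBFOX2 knockdown passed in 4 of 10 alternatives. It did not pass with DESeq2 (-0.58, adjusted p = 0.0509), in the fit on the 6 libraries concerned (-0.57, adjusted p = 0.0505), on halved counts (-0.57, adjusted p = 0.0633) or on the normalised signal (-0.38, -0.33 and -0.38, adjusted p = 0.160, 0.172 and 0.114). The Notch1 difference between RBPMS and QKI knockdown did not pass with library totals (0.17, adjusted p = 0.0846) or on the normalised signal (0.17, 0.17 and 0.17, adjusted p = 0.0847, 0.0901 and 0.0780). Library totals are a scaling that moved the median of all genes in that comparison by -0.13, and by -0.0986 between RBPMS and RBFOX2 knockdown. On the normalised signal the median of all genes between RBPMS and QKI knockdown moved by -0.0503, -0.0481 and -0.0768. Notch1 between RBPMS and RBFOX2 knockdown passed in 7 of 11 alternatives. With library totals Hes1 did not pass between RBPMS and RBFOX2 knockdown (0.13, adjusted p = 0.0772).

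The replicate numbers showed no clear pairing of the libraries. Correlations of same-numbered deviations from the group means ran from -0.354 to 0.251, with 4 of 18 above 0.1, and 3 of 12 libraries correlated best with their own number. With 3 libraries per group these values cannot settle whether the libraries were paired. With the replicate number as a block, 8, 9 and 9 of the 9 genes passed against control and 7, 9 and 6 between knockdowns, the added gene being Notch1 between RBPMS and RBFOX2 knockdown (-0.18, adjusted p = 0.0416), Jag1 between RBPMS and RBFOX2 knockdown was -6e-04, and 43, 44 and 46 genes of the pathway list passed.

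Depth limits Heyl, Dll4 and Dll3, and the low counts of Dll1, Jag2, Hey1 and Hes5 leave wide intervals.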
